A study of Mus musculus with 2 samples.

Results

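The 9 genes described here are Trem2, its signalling adaptor Tyrobp, and 7 genes that mark lipid-associated macrophages: Apoe, Lpl, Fabp5, Gpnmb, Cd9, Spp1 and Lgals3. They were chosen by symbol from the 31053 genes listed for both libraries, and all 9 were found once. Single-cell RNA was counted in cultures grown from the bone marrow of wild-type 129Sv mice. M-CSF, which turns marrow precursors into macrophages, was present at 50 ng/ml along with 10% FBS (serum), and the cultures were fed on day 3 and again, by partial exchange, on day 6. On day 7 the cells of one library received 1 µg/ml of a truncated, non-polymerizing form of Tamm-Horsfall protein (THP, or uromodulin, which the kidney secretes into urine) and those of the other received the vehicle, 5% dextrose, each for 18 h. There was 1 library per group, so no difference between them has a replicate check, and the treatment cannot be told apart from the culture dish or the library preparation.

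TREM2 is a receptor of myeloid cells that binds lipids, lipoproteins and cell debris. It has no signalling tail of its own and relays through TYROBP (DAP12), whose phosphorylated motif recruits the kinase SYK. Macrophages that take up lipid in obese fat tissue, atherosclerotic plaques, fatty liver and the diseased brain share a program in which TREM2 is switched on together with genes for lipid handling, lysosomes and secreted matrix proteins. TREM2 and TYROBP also act in osteoclasts, the bone-resorbing cells that arise from the same precursors as macrophages.

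The THP library held 12123 cells after filtering, with 224825484 unique molecular identifiers (UMIs, 1 per captured RNA molecule) and a median of 16113 per cell. The vehicle library held 10978 cells, with 207662132 UMIs and a median of 17223. Levels are counts per 1000000 UMIs (CPM), and 95% intervals are exact and cover counting error only. Cells were assigned to types by gates, each a minimum of summed UMIs of marker genes per 10000 UMIs, with none of the 9 genes among the markers. The gate thresholds were set after the data had been seen, and a gate is a range on a score rather than a proven cell type. The cultures were mixed: the macrophage gate (7 markers, among them C1qa, C1qb, C1qc, Adgre1, Mertk and Mrc1, summing to at least 5 per 10000) held 4633 THP cells (38.2%) and 2931 vehicle cells (26.7%), while 24.8% and 31.7% of cells fell in the neutrophil gate and 9.13% and 12.7% in the myeloid progenitor gate. Between 4 and 6 marker UMIs per 10000, close to the macrophage threshold, lay 681 THP and 459 vehicle cells. The libraries shared 38 cell barcodes among the kept cells.

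Trem2 (ENSMUSG00000023992, chr17:48346401-48354147 of GRCm38, plus strand) and Spp1 (ENSMUSG00000029304, chr5:104435118-104441050, plus strand) are shown first by their promoters. Their levels followed each other over the groups of at least 100 cells per library (r = 0.93 over 14 profiles). Those groups leave out the stromal gate, where Spp1 was highest. Of the 6 genes with a matched RefSeq window, Trem2 and Spp1 alone hold the letters of the core site of PU.1. The myeloid factor PU.1 is encoded by Spi1, and whether it has a part in their levels was not tested. The 250 bases before the RefSeq start (assembly GRCm38.p6) are printed 5′ to 3′ on the strand of the gene, from chr17:48346151-48346400 for Trem2 and chr5:104434861-104435110 for Spp1. Capitals mark GAGGAAG or, read on the other strand, CTTCCTC.
Trem2: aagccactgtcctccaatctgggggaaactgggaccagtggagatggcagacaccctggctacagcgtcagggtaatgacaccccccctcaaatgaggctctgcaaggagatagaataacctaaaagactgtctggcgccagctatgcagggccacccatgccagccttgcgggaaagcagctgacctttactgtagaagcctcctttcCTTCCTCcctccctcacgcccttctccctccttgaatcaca
Spp1: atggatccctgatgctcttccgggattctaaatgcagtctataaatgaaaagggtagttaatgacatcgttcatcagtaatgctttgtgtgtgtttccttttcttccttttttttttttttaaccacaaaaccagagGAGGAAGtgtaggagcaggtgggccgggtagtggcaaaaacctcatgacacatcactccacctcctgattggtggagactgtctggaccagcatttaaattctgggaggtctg
The match begins 41 bases before the start of Trem2, on the other strand, and 113 bases before the start of Spp1. A second RefSeq window of Spp1, chr5:104435942-104436241, holds none of the searched letters. GAGGAAG on either strand occurs in 13.6% of 32851 RefSeq windows reaching from 250 bases before to 50 bases after a gene's start, so a match is a description of the sequence and not a binding site. RefSeq windows were matched for 6 of the 9 genes: Trem2, Spp1, Gpnmb, Cd9, Apoe and Lgals3. Gpnmb has an AP-1 letter match (TGACTCA, in 5.20% of windows) that begins 8 bases after its start. It is shown in capitals within its 25 bases.
Gpnmb: aggggcaagTGACTCAtgagcacga
AP-1 is a factor family that includes FOS. Whether this match has a part in the level of Gpnmb was not tested. Of the E-box letters CACGTG (7.15% of windows) and CATGTG (14.2%), which factors such as MITF and TFEB read, CATGTG alone was found, in the window of Cd9 on the other strand, 38 bases before its start.

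Summed over all kept cells, each of the 9 genes was somewhat higher in the THP library, and none reached a 2-fold difference. Trem2 stood at 433 CPM in THP cells against 385 in vehicle cells, a 1.13-fold ratio with an interval of 1.12 to 1.14. Tyrobp (ENSMUSG00000030579, chr7:30413760-30417585, plus strand), the adaptor, stood at 2390 and 2158 CPM, a 1.11-fold ratio. The receptor and its adaptor therefore had nearly the same ratio. Among the genes of lipid handling, Fabp5 (ENSMUSG00000027533, chr3:10012548-10016607, plus strand), which carries fatty acids inside the cell, had 693 and 431 CPM, the largest ratio of the 9 at 1.61-fold (1.59 to 1.62). Apoe (ENSMUSG00000002985, chr7:19696109-19699188, minus strand), the apolipoprotein that macrophages secrete with cholesterol, had 234 and 180 CPM, a 1.30-fold ratio (1.28 to 1.32). Lpl (ENSMUSG00000015568, chr8:68880491-68907448, plus strand), which splits triglycerides in lipoproteins, had 1439 and 1225 CPM, a ratio of 1.17. Of these lipid genes only Fabp5 exceeded 1.5-fold.

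The secreted and surface proteins spanned the same small range. Spp1, which encodes the matrix protein osteopontin, had 3843 CPM in THP cells against 2792 in vehicle cells, a 1.38-fold ratio. Lgals3 (ENSMUSG00000050335, chr14:47367751-47386160, plus strand), the sugar-binding galectin-3, had 2262 and 2223 CPM, a ratio of 1.02. Gpnmb (ENSMUSG00000029816, chr6:49036546-49070929, plus strand), a membrane glycoprotein of lysosome-rich macrophages and osteoclasts, had 360 and 347 CPM, and Cd9 (ENSMUSG00000030342, chr6:125460266-125494791, minus strand), a tetraspanin of the cell surface, had 266 and 239. Lgals3 and Gpnmb were thus within 1.04-fold of equal. Reads from the processed copies of Fabp5 elsewhere in the genome may have been dropped or shared in counting, which makes its values uncertain.

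Among the 8012 genes with at least 10 CPM in 1 library or both, 311 (3.88%) differed by 2-fold or more, 0.911% being higher in the THP library and 2.97% lower, against 0 of the 9 genes. At 1.5-fold, 1 of the 9 was higher, against 2.33% of all genes. All 9 lay above 0 on the log2 scale (log2 of CPM + 1 in THP over vehicle), where 32.4% of all genes did. The median over the 9 was 0.17 and the median over all genes was -0.18. Corrected for the trend of the ratio with transcript length, Tyrobp was at -0.26, Lgals3 at -0.22 and Cd9 at -0.12, so the direction of these 3 genes depends on that choice.

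The macrophage share of the culture moved with this result. The macrophage marker sum was 1304 CPM with THP against 1075 with vehicle, whereas the neutrophil sum (9 markers) was 3909 and 5566, the progenitor sum (4 markers) 2622 and 4353, and the monocyte sum (5 markers) 788 and 1297. Every marker of these 4 lists had UMIs in both libraries. When the gated types were given the same shares in both libraries, the log2 ratio of Trem2 was -0.01, that of Apoe -0.03 and that of Gpnmb -0.11. Under the same weighting Fabp5 kept 0.58, Spp1 0.35, Tyrobp 0.14, Lpl 0.12, Cd9 0.12 and Lgals3 0.01. At equal cell mix, with scaling to total UMIs, Trem2, Apoe and Gpnmb were thus at or just under 0, while all 9 genes still lay above the median of all genes under that weighting, -0.18.

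Inside the macrophage gate the 9 genes divided. Fabp5 was higher in THP cells, Gpnmb was lower, and the other genes were within 1.11-fold of equal. Fabp5 had 760 CPM in THP cells and 561 in vehicle cells, a 1.35-fold ratio (1.34 to 1.37). Gpnmb had 358 and 447 CPM, a ratio of 0.801 (0.790 to 0.813), or 1.25-fold higher in the vehicle library. Trem2 had 539 and 589 CPM (ratio 0.916), so the receptor, unlike in the whole culture, was slightly lower in THP macrophages with this scaling. TMM factors, which centre the bulk of genes, put Trem2 at 0.12, Lpl at 0.20 and Lgals3 at 0.14 on the log2 scale, all above 0, but kept Gpnmb below it.

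Tyrobp had 2393 CPM in THP and 2279 in vehicle macrophages, a ratio of 1.05. Spp1 had 4371 and 3938 CPM, a ratio of 1.11, and Apoe had 340 and 328, a ratio of 1.04. Lpl had 1661 and 1724 CPM, Cd9 had 238 and 240, and Lgals3 had 2133 and 2310. These last 3 genes were equal or slightly lower in the THP library. None of the 9 reached 2-fold in either direction, where 3.29% of 7875 genes did, and 4 of 9 lay above 0 against 33.4% of genes. The median over the 9 was -0.01, beside -0.16 over all genes in this gate.

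The gated macrophages themselves differed between the libraries in their markers. The 7 macrophage markers summed to 2060 CPM in THP cells and 2271 in vehicle cells, and all 7 were detected in both. Adgre1, which encodes F4/80, had 520 and 420 CPM, while Mrc1, the mannose receptor CD206, had 229 and 398. Monocyte markers summed to 195 and 322 CPM in this gate and neutrophil markers to 120 and 158, both lower in THP cells. Whether these differences take part in the ratios of the 9 genes was not tested.

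**Figure D1:**
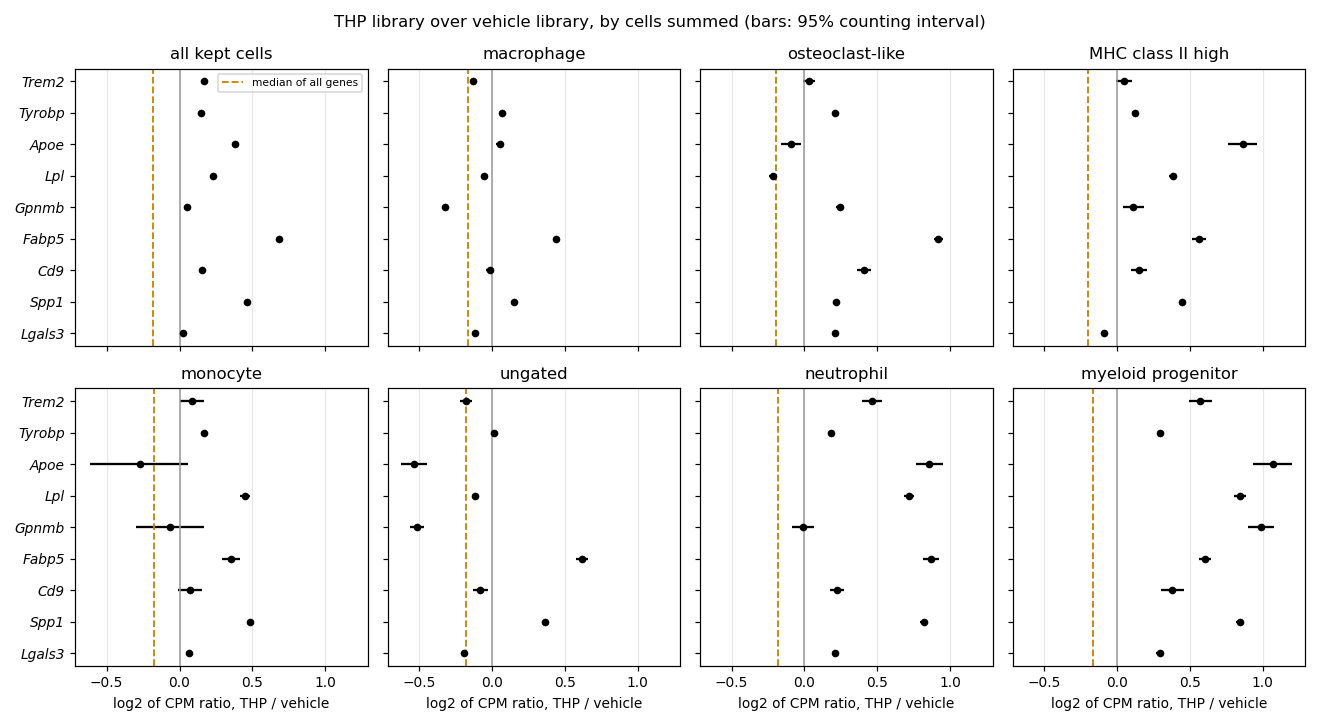
Log2 of the CPM ratio of the THP library over the vehicle library (x axis) for each of the 9 genes (y axis), in all kept cells and in the 7 groups of gated or ungated cells with at least 200 cells per library. Points are ratios, bars 95% counting intervals, and the dashed line is the median log2 ratio of all genes of at least 10 CPM. Fabp5 lies right of 0 in all 8 panels, and Gpnmb lies left of 0 in macrophage-gated cells and right of it in osteoclast-like cells.

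Across the gates, Fabp5 was the gene with the steadiest direction. Its ratio was above 1 in 11 of 11 groups of cells, the ungated cells counted as a group, and the interval excluded 1 in 10 of them. It was 1.89-fold (1.85 to 1.93) in the osteoclast-like gate, 1.82-fold in the neutrophil gate, 1.54-fold in ungated cells, 1.52-fold in progenitors, 1.48-fold in the gate for high MHC class II and 1.28-fold in monocytes. Spp1 and Tyrobp were each above 1 in 10 of 11 groups, with the interval above 1 in 8 and 9 of them. Corrected for transcript length, Spp1 was at -0.083 and Tyrobp at -0.31 on the log2 scale in macrophages. Their direction in that gate thus depends on that choice, and the correction was not run in the other gates. The remaining 6 genes had groups on both sides of 1 with intervals clear of it. The same counts were not made for all genes, so those in this paragraph have no background.

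In gates of other lineages the THP library carried more RNA of most of these genes. In the myeloid progenitor gate (Mpo, Elane, Prtn3 and Ctsg at 20 per 10000 or more) all 9 genes were higher in THP cells, against 33.6% of genes, and Apoe, at 48.0 and 22.9 CPM, was 2.09-fold higher. That made 1 of 9 genes past 2-fold in this gate, against 2.82% of 7921 genes in either direction and 1.02% in that direction. Gpnmb was at 96.2 and 48.5 CPM there, and Lpl at 487 and 271. Trem2 was at 112 and 75.1 CPM, 1.48-fold higher. In neutrophil-gated cells 4 of 9 genes exceeded 1.5-fold (Fabp5, Apoe, Spp1 and Lpl), against 3.95% of genes, and 0 of 9 reached 2-fold, against 5.81%. No member reached 2-fold in the MHC class II high gate (5.3% of genes did), in monocytes (3.46%) or in ungated cells (4.44%).

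In both of these gates macrophage markers were also higher in the THP library. They summed to 308 CPM in THP and 194 in vehicle progenitors, and to 541 and 330 CPM in the neutrophil gate. All 7 were detected in each. Free RNA, doublets and low expression were not separated for these values, and their part was not tested.

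**Figure D2:**
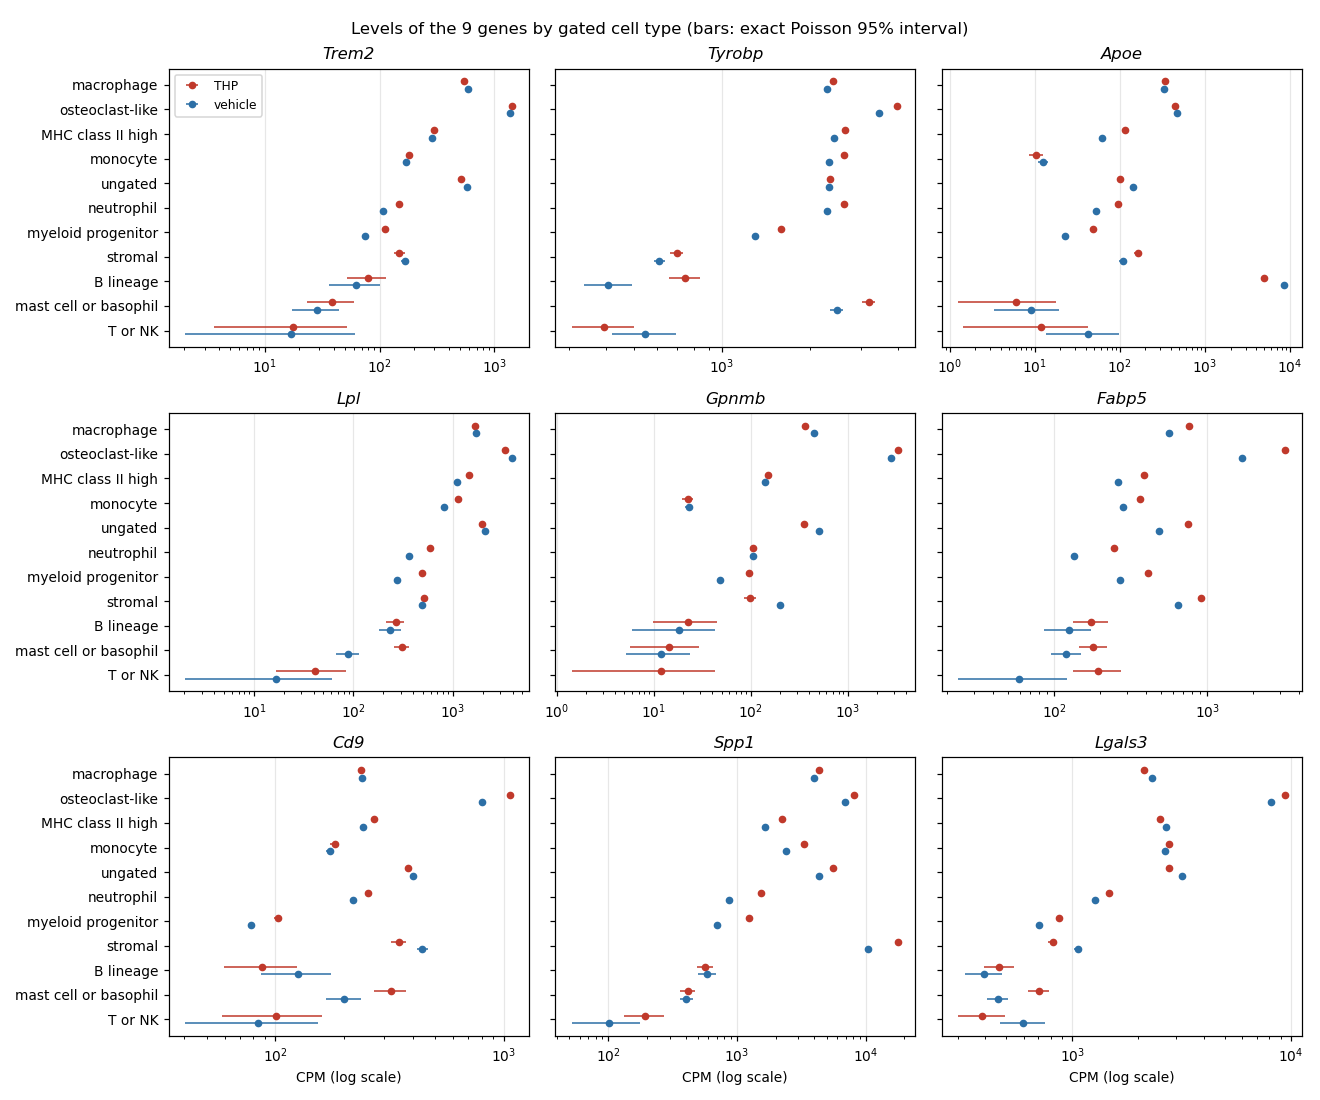
CPM on a log axis (x) of each of the 9 genes in the 10 gated types and in ungated cells (y), for the THP and vehicle libraries, with exact Poisson 95% intervals as bars. Osteoclast-like cells hold the highest level of 7 genes in both libraries, B lineage-gated cells that of Apoe and stromal cells that of Spp1; Gpnmb in vehicle T or NK cells, with 0 UMIs, has no point.

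The order of cell types was much the same in both libraries. In each library 7 of the 9 genes had their highest level in the osteoclast-like gate. It held 300 THP and 274 vehicle cells with at least 5 UMIs per 10000 of Atp6v0d2, Ocstamp, Dcstamp and Acp5. The share of all genes that were highest in this gate was not computed, so the count has no background. Trem2 reached 1408 CPM in THP and 1379 in vehicle cells of this gate, 2.61-fold and 2.34-fold the level in the macrophage gate. Ungated cells followed macrophages closely (513 and 580.5 CPM). In the vehicle library the interval of macrophages overlapped that of ungated cells. The MHC class II high gate had 298 and 288 CPM of Trem2, monocytes 179 and 169, neutrophils 146 and 106, and progenitors 112 and 75.1. T or NK cells had 3 and 2 UMIs of Trem2 in all.

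Tyrobp was far more even. It reached 3984 and 3442 CPM in osteoclast-like cells, and lay between 2279 and 2640 CPM in the macrophage, monocyte, neutrophil, MHC class II high and ungated cells of both libraries. Mast cells or basophils, in which TYROBP pairs with other receptors, had 3180 and 2468 CPM of Tyrobp beside 38.7 and 28.5 CPM of Trem2. So the adaptor was high in gates where the receptor was low.

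Gpnmb showed the steepest contrast between osteoclast-like cells and macrophages of the 9 genes. It stood at 3310 CPM in THP and 2795 in vehicle cells of the osteoclast-like gate, 9.24-fold (9.09 to 9.39) and 6.25-fold (6.14 to 6.36) the level in macrophages. These cells, 300 of 12123 in the THP and 274 of 10978 in the vehicle library, held 29.6% and 30.3% of all Gpnmb UMIs. Lgals3 was 4.40-fold and 3.51-fold higher there than in macrophages, Cd9 4.49-fold and 3.35-fold, and Fabp5 4.22-fold and 3.02-fold. Lpl was 2.03-fold and 2.28-fold higher, and Tyrobp 1.66-fold and 1.51-fold. Between the libraries Gpnmb in osteoclast-like cells was 1.18-fold higher in THP, where macrophages had it lower. Within this gate 0 of 9 genes reached 2-fold between the libraries, against 3.73% of genes.

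The osteoclast-like name rests on few markers and many cells lay near its threshold, 203 THP and 151 vehicle cells between 4 and 6 marker UMIs per 10000. Of its 4 markers, Atp6v0d2 was at 402 and 423 CPM, Dcstamp at 173 and 261 and Acp5 at 259 and 163, while Ocstamp was only at 1.52 and 4.99. Among genes looked at after the data had been seen, Ctsk, the cathepsin of bone resorption, had 55.1 and 21.7 CPM in the gate and 1.86 and 2.17 in macrophages. Calcr, the calcitonin receptor of mature osteoclasts, had 0 UMIs, which allows up to 0.510 and 0.472 CPM at the 95% level. Mmp12, an elastase of macrophages, had 5238 and 5889 CPM in the gate and 363 and 547 in macrophages. Not all osteoclast genes were therefore found in the gate. With a threshold of 10 per 10000, which left 63 and 74 cells, the same 7 genes were highest in this gate in both libraries.

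Apoe and Spp1 had their highest levels outside the myeloid gates. Apoe was at 4949 CPM in THP and 8459 in vehicle cells of the B lineage gate, 99 and 64 cells. It rested on few of them: 6 THP and 9 vehicle cells had 100 or more Apoe UMIs per 10000 and held 81.0% and 82.7% of the Apoe UMIs of the gate. The median cell had 3.49 and 10.7 per 10000, and 48 and 21 cells had no Apoe UMI. In those Apoe-rich cells macrophage markers summed to 68.0 and 106 CPM, beside 2060 and 2271 CPM in macrophages. The Apoe-rich cells had a median depth of 4564 and 5212 UMIs, so these sums rest on few marker UMIs. Doublets were not separated. Other marker lists were not examined in these few cells. Over the whole gate macrophage markers summed to 799 and 77.3 CPM and neutrophil markers to 2937 and 3053, and their part in the Apoe levels was not tested. The median depth of the gate was 1981 and 3150 UMIs per cell.

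Spp1 was at 17962 CPM in THP and 10520 in vehicle cells of the stromal gate (82 and 72 cells with collagen genes and Sparc), 4.11-fold and 2.67-fold the level in macrophages. Every cell of that gate had a Spp1 UMI, with a median of 181 and 75.4 UMIs per 10000. The stromal markers themselves went the other way, at 5277 CPM in THP and 14759 in vehicle cells of the gate. Gpnmb in the same gate was at 98.7 and 202 CPM. The stromal and B lineage gates together are small, and without them the ratio over all cells remained above 0 on the log2 scale for all 9 genes.

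**Figure D3:**
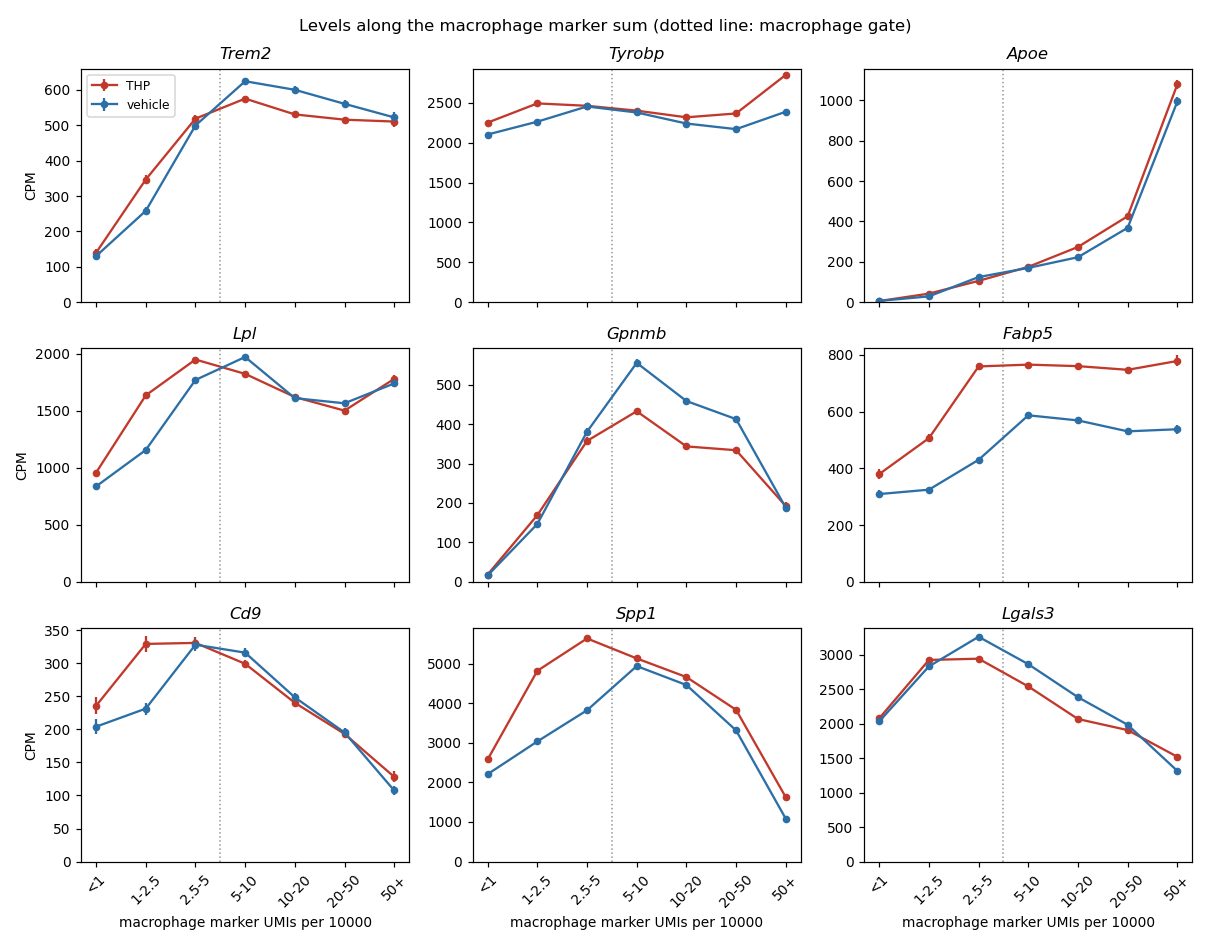
CPM of each of the 9 genes (y axis, from 0) against the summed macrophage markers in UMIs per 10000 (x axis, 7 bands), for cells in the macrophage, monocyte and ungated groups. Bars are 95% Poisson intervals and the dotted line is the macrophage threshold. Apoe climbs through every band above the lowest, Trem2 levels off, and Cd9, Spp1 and Lgals3 decline in the bands above the threshold.

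Along the macrophage marker sum, 3 patterns appeared, in macrophage-gated, monocyte-gated and ungated cells split in 7 bands. Apoe climbed throughout, from 5.82 CPM in THP and 6.44 in vehicle cells under 1 marker UMI per 10000 to 1079 and 994 CPM at 50 or more. Trem2 climbed early, from 140 and 130 CPM to 575 and 624 in the band from 5 to 10, and then declined to 510 and 522. Gpnmb peaked in the same band at 433 and 555 CPM and dropped to 192 and 188 in the highest band.

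Cd9, Spp1 and Lgals3 had their highest levels near or under the threshold and their lowest macrophage level in the highest band. Spp1 had 5638 CPM in THP and 3823 in vehicle cells in the band from 2.5 to 5, and 1625 and 1082 in the highest band. In vehicle cells Spp1 peaked just above the threshold, at 4940 CPM in the band from 5 to 10. Lgals3 had 2942 and 3261 CPM in the band from 2.5 to 5 and 1519 and 1315 at the top. The band with the highest marker sum had the most Apoe and the least Spp1, Lgals3 and Cd9 of the macrophage-gated bands. Fabp5 was flat above the threshold, between 748 and 779 CPM in THP cells and between 531 and 587 in vehicle cells, and was higher in THP cells in each of the 7 bands.

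In single macrophages the genes differed in how many cells carried them. After each cell was thinned to 5000 UMIs, which left out 156 shallower THP and 86 shallower vehicle cells of this gate, Trem2 had a UMI in 86.2% of THP and 88.4% of vehicle macrophages. Unthinned, the shares were 96.5% and 97.5%. Progenitor-gated cells had Trem2 in 21.2% and 17.0% after thinning. Median depths before thinning were 20835 and 22834 UMIs in macrophages and 19276 and 22688 in progenitors. The macrophage shares were thus well above those of progenitors. Free RNA, doublets and low expression were not separated in the progenitor shares.

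Apoe had a UMI in 42.4% of THP and 44.6% of vehicle macrophages after thinning (55.7% and 59.3% unthinned), against 6.32% and 3.098% of progenitors. Gpnmb had one in 40.3% and 41.1% (59.6% and 60.1% unthinned), against 6.78% and 6.99%. Fabp5 was found in 82.7% of THP and 76.3% of vehicle macrophages (95.01% and 92.9% unthinned), but progenitors also had it in 64.1% and 59.7%. So Apoe and Gpnmb were missing from more than 50% of macrophage-gated cells at this depth, in both libraries.

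Apoe and Gpnmb were also concentrated in few cells. The top 10% of macrophages by thinned UMIs held 63.4% of Gpnmb UMIs in THP and 62.8% in vehicle cells, and 57.0% and 54.4% of those of Apoe. For Trem2 the same share was 28.1% and 26.9%, and for Tyrobp 19.2% and 18.8%.

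**Figure D4:**
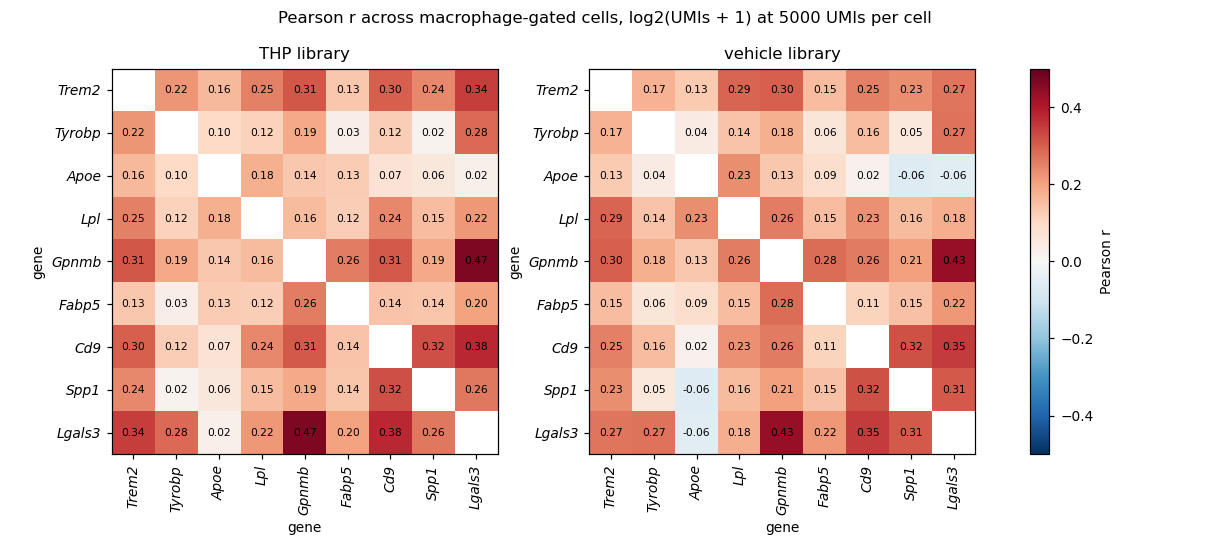
Pearson correlation of log2(UMIs + 1) between each pair of the 9 genes (both axes) across macrophage-gated cells thinned to 5000 UMIs, 4477 in the THP and 2845 in the vehicle library. Color gives r, also printed in each square. Gpnmb with Lgals3 has the highest value in both, 0.47 and 0.43, and Apoe with Lgals3 is near 0.

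The 9 genes did not form a single block across macrophages. Over the 36 pairs the median Pearson correlation of log2(UMIs + 1) was 0.18 in both libraries, across 4477 THP and 2845 vehicle cells thinned to one depth. All cells of a library share its preparation and culture, and sparse counts pull such values towards 0, so these are descriptions. Gpnmb and Lgals3 had the highest value (0.47 and 0.43), followed by Cd9 and Lgals3 (0.38 and 0.35). Trem2 and Tyrobp had 0.22 and 0.17. Apoe had 0.02 and -0.06 with Lgals3 and 0.06 and -0.06 with Spp1.

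In osteoclast-like cells (280 and 262 at that depth) pairs lay on both sides of their macrophage values. Apoe with Lgals3 had -0.37 and -0.22, and Cd9 with Lgals3 had 0.58 and 0.38. Gpnmb with Fabp5 had 0.55 and 0.42, Gpnmb with Lgals3 0.47 and 0.31, and Lpl with Gpnmb 0.0038 in both, where macrophages had 0.16 and 0.26.

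Over 14 profiles, 7 groups of cells in each of the 2 libraries, the genes whose log2(CPM + 1) was most like that of Trem2 among 9041 genes were Ftl1 (r = 0.99), a ferritin light chain, Srxn1 (0.99), Cd68 (0.99), a lysosomal membrane protein of macrophages, Anxa4 (0.98) and Ctsa (0.98), a lysosomal peptidase. Among the 9 genes, Lpl (0.97) and Spp1 (0.93) came closest to Trem2 and Tyrobp (0.75) was the most distant. The genes most like Apoe were Folr2 (0.98) and Ms4a7 (0.98), and those most like Gpnmb were Syngr1 (0.99) and Adamtsl5 (0.99). Profiles of one library share its depth, and the 2 libraries repeat the same cell types.

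The other genes of the pathway were read from 8 lists, 105 genes in all. Over all kept cells, 2 of the 88 genes with at least 10 CPM were 2-fold or more higher in the THP library and 4 were lower, against 0.911% and 2.97% of all genes. The median over the lists was -0.05, beside -0.18 over all genes. With TMM factors 4 were higher and 0 lower. After correction for transcript length 1 was higher and 0 lower, and at equal cell mix 1 was higher and 2 were lower. The direction of these counts thus depends on the scaling. List genes given below as 2-fold lower over all kept cells did not pass that limit with TMM factors or with length correction. In macrophage-gated cells 2 of 86 were higher, Acsl1 and Sdc4, and 1 was lower, Vav3, against 0.978% and 2.31% of all genes in that gate.

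Of 17 measured genes of Trem2 signalling and shedding, 0 were higher and 1 lower by 2-fold. That gene was Vav3, a signalling protein downstream of immune receptors, at 34.6 CPM in THP and 70.3 in vehicle cells (log2 ratio -1.003). Adam10, a sheddase of TREM2, had 71.1 and 114 CPM (-0.68), Cd33, an inhibitory lectin, 32.2 and 52.0 (-0.67), and Btk, a kinase, 47.3 and 74.4 (-0.64). Syk, the kinase that binds TYROBP, was close to equal at 74.97 and 76.1 CPM. The median of this signalling list was -0.17, beside -0.18 over all genes, and 9 of its 17 genes lay above the all-gene median. In the TREM family, Treml2 was at 12.8 and 28.1 CPM (-1.08) and Trem3, which also pairs with TYROBP, at 62.3 and 81.5 (-0.38). These 2 were the only genes of 5 in that list with 10 CPM.

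Of 27 other genes of the lipid-associated program, 1 was past 2-fold: Lilrb4a, an inhibitory receptor, at 36.2 and 74.8 CPM (-1.03). The other named genes of that list were Cstb, a cathepsin inhibitor, at 1127 and 746 CPM (0.59), Lgals1, galectin-1, at 2861 and 1931 (0.57), and Ank, a pyrophosphate transporter, at 34.4 and 53.8 (-0.63). Its median was -0.01. Clec7a was not analysed here. None of the 27 was 2-fold or more higher in the THP library.

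None of the 13 measured genes of lipid uptake and storage was past 2-fold in the whole culture. Fabp4, the adipocyte and macrophage fatty acid carrier, had 59.2 CPM in THP and 32.4 in vehicle cells (0.85), Acsl1, which activates fatty acids, 70.1 and 42.5 (0.71), Hilpda, a lipid droplet protein, 14.4 and 10.1 (0.46), and Soat1, which esterifies cholesterol, 86.7 and 131 (-0.59). In macrophage-gated cells Acsl1 was past 2-fold, at 72.6 and 33.0 CPM (1.11). Fabp4 was higher there too, at 72.8 and 49.95 CPM (0.54), alongside Fabp5.

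Of 9 measured regulators, 1 was past 2-fold, Nr1h3, the oxysterol receptor LXR alpha that drives Apoe, at 26.4 CPM in THP and 12.4 in vehicle cells (1.03). In macrophages it was at 38.3 and 24.9 (0.60), and Apoe was at 340 and 328 CPM there. Whether Nr1h3 has a part in the level of Apoe was not tested. Cebpb had 466 and 258 CPM (0.85), Spi1, encoding PU.1, 546 and 396 (0.46), and Bhlhe40, a repressor, 9.07 and 11.99 (-0.37). In macrophages Spi1 was at 556 and 371 CPM (0.58), beside 539 and 589 CPM of Trem2.

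Among 6 measured receptors for osteopontin and partners of galectin-3, 0 were past 2-fold, 2 lay above 0, where 32.4% of all genes did, and the median was -0.39. The integrin chains Itga4 (83.8 and 141 CPM, -0.75), Itgb1 (226 and 376, -0.73) and Itgb5 (32.1 and 42.9, -0.41) were lower in the THP library, and Lgals3bp, a ligand of galectin-3, was higher (109 and 78.5, 0.46). Of 6 measured receptors for apolipoprotein E, 2 lay above 0. Sdc4, a heparan sulfate proteoglycan, was 2-fold or more higher (342 and 105 CPM, 1.70) and Sorl1 2-fold or more lower (31.7 and 69.6, -1.11). Lrp8 was at 7.86 and 12.6 CPM (-0.62). Sdc4 stayed past 2-fold in macrophages, at 492 and 199 CPM (1.30).

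None of the 9 tetraspanins other than Cd9 was past 2-fold. Cd82 had 35.8 CPM in THP and 25.7 in vehicle cells (0.46), Tspan4 50.2 and 43.6 (0.20), Tspan14 25.2 and 34.3 (-0.43) and Tspan32 24.3 and 33.7 (-0.46). Their median of -0.03 lay under the 0.15 of Cd9.

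**Figure D5:**
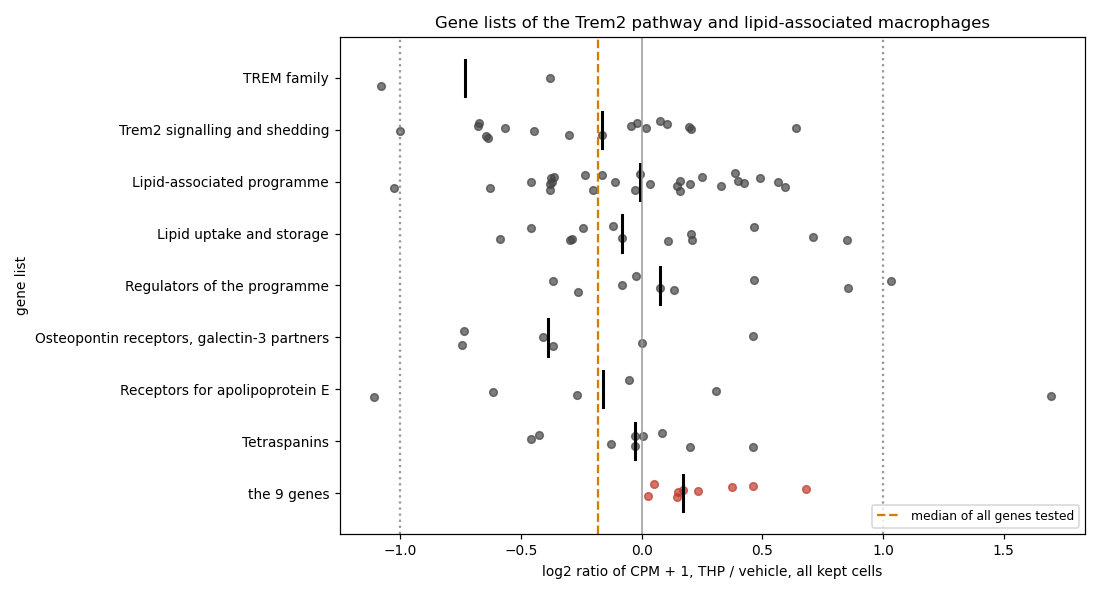
Log2 ratio of CPM + 1, THP over vehicle library, over all kept cells (x axis) for each measured gene of the 8 lists and for the 9 genes (y axis, red). Points are genes, black bars the median of a list, the dashed line the median of all genes and dotted lines the 2-fold limits. All 9 genes lie right of 0 and inside the limits, and 6 list genes lie past the limits.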

How the data were processed

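Per the labels' protocols, detached cells were depleted of dead cells and made into Chromium droplet libraries. The authors deposited raw UMI counts per gene and barcode (software version 3.1.0 per the file headers); Cell Ranger, STAR, bcl2fastq and mm10 are named in the submitters' processing notes. Deposited barcodes had at least 501 (THP) and 503 (vehicle) UMIs. Cells were kept with at least 500 genes, at least 1000 UMIs and at most 10% mitochondrial UMIs; no doublet caller was run. Counts were summed per library or gate and divided by the total UMIs. Gates were applied in the order stromal, B lineage and mast cell or basophil (10 marker UMIs per 10000 each), T or NK (15), neutrophil and myeloid progenitor (20 each), osteoclast-like (5), MHC class II high (30), macrophage (5) and monocyte (10); a cell took the first it passed. With 1 library per group no test was possible. A gene counted as past the limit at 10 CPM or more in 1 library and a 2-fold ratio of CPM + 1; the rule was checked on simulated counts. The 9 genes, the lists and the markers were chosen with earlier results of these data known. Named genes were the 9, up to 4 per list with the largest absolute log2 ratio at 10 CPM or more, and the 5 genes most correlated with Trem2 over profiles of at least 100 cells; the genes like Apoe and Gpnmb, the macrophage markers, Syk, Ctsk, Calcr and Mmp12 were added after their values were seen. Alternatives covered scaling (TMM and RLE factors, edgeR 4.0.16 in R 4.3.3), cell filters, cell weights, cell mix, pseudocount, low-count filter, fold limit, transcript length (GENCODE M21) and gates. Python 3.11.15 with numpy 2.4.6 and scipy 1.17.1 did the rest. Coordinates are 1-based. A gene that the naming rule selected and one marker are not reported here by name.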

Additional observations from a re-analysis of the deposited data

Results flagged for a closer look

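Between the macrophage gate and another gate, 5 of the 9 genes differed between the libraries in opposite directions, with counting intervals on opposite sides of 1 in both gates. How many of all genes did so was not counted, so this number has no background. TMM and RLE factors reversed Trem2, Lpl and Lgals3 in macrophages, so their opposite directions depend on the scaling. Measured from the median log2 ratio of all genes in each gate, Apoe was at 0.21 in macrophages and 0.10 in osteoclast-like cells. These lie on the same side, whereas ungated cells had -0.35. Correction for length also reversed Apoe in macrophages (-0.19). The differences between gates were not tested, because each gate holds 1 library per group. Folds are CPM in the THP library over CPM in the vehicle library.

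Trem2 had a fold of 0.916 in macrophages, but 1.38 in neutrophil-gated cells, 1.48 in myeloid progenitors and 1.06 in monocytes. Lpl had 0.963 in macrophages, but 1.64 in the neutrophil gate, 1.80 in progenitors, 1.31 in the MHC class II high gate and 1.37 in monocytes. Lgals3 had 0.923 in macrophages, but 1.16 in the neutrophil gate, 1.23 in progenitors, 1.16 in osteoclast-like cells and 1.04 in monocytes.

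Gpnmb had 0.801 in macrophages, but 1.98 in progenitors, 1.18 in osteoclast-like cells and 1.08 in the MHC class II high gate. Apoe went the other way, with 1.04 in macrophages, 0.939 in osteoclast-like cells and 0.691 in ungated cells. Progenitors and neutrophil-gated cells of the THP library also had higher macrophage marker sums (308 against 194 CPM and 541 against 330 CPM).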

How the results depend on the processing

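Over all kept cells, 0 of the 9 genes were past 2-fold under each of the 12 alternatives but the 1.5-fold limit, which gave 1. List genes past the limit numbered 6, and 20 at 1.5-fold (7 higher, 13 lower), 1 after correction for transcript length and 3 at equal cell mix; TMM and RLE factors each gave 4 higher and 0 lower, against 2 and 4. Those factors moved the median of all genes from -0.18 to 0.11 and 0.10. Correction for length reversed Tyrobp (-0.26), Cd9 (-0.12) and Lgals3 (-0.22), and equal cell mix reversed Trem2 (-0.015), Apoe (-0.035) and Gpnmb (-0.11). In macrophage-gated cells TMM reversed Trem2 (0.12), Lpl (0.20) and Lgals3 (0.14), RLE gave the same values to 2 decimals (0.12, 0.20 and 0.14), and correction for length reversed Trem2 (0.061), Tyrobp (-0.31), Apoe (-0.19), Lpl (0.059) and Spp1 (-0.083). The causes were not tested. Over the alternatives run, Fabp5 stayed between 0.58 and 0.97 in all cells and between 0.43 and 0.69 in macrophages, and Gpnmb in macrophages between -0.32 and -0.07. Depth limits the small gates most, where T or NK cells of the vehicle library had 0 Gpnmb UMIs, which allows up to 25.2 CPM (3 counts). Leaving out the stromal and B lineage gates, shared barcodes or cells near the osteoclast-like threshold was chosen after seeing the data. No paired analysis was possible because each group has 1 library.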
